A study of Rattus norvegicus with 6 samples.

Results

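The genes described here make, carry, sense and degrade retinoic acid. They are the 9 genes Rbp4, Stra6, Aldh1a1, Aldh1a2, Aldh1a3, Crabp1, Crabp2, Cyp26b1 and Rarb, taken by gene symbol from a table of 30498 rat genes, where each symbol had a single row. Read counts were compared between 3 libraries of rcMSC, mesenchymal stem cells (MSC) from cranial bone marrow, and 3 libraries of rbMSC, MSC from the marrow of femurs and tibias. All 6 libraries came from wild-type rats of the species Rattus norvegicus, with no treatment named, and the title of the series concerns transplantation of the cranial cells after spinal cord injury. Strain, age, sex, culture passage and the number of animals behind a library were not found in the labels, so the p-values measure the spread between libraries, which may be technical.

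Retinoic acid is a small lipid signal made from vitamin A. Retinol travels in blood bound to RBP4, can enter cells through the receptor STRA6, is oxidised to retinaldehyde by alcohol and retinol dehydrogenases, and is converted irreversibly to retinoic acid by the ALDH1A enzymes. CRABP proteins bind retinoic acid inside the cell, CYP26 enzymes degrade it, and the receptors RARA, RARB and RARG, paired with RXR partners, switch target genes. In skeletal development the signal patterns the embryonic axis, limbs and face, and loss of CYP26B1 disturbs the skull sutures in mice and humans.

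Total counts were 26179769 to 26928079 in rcMSC and 21340290 to 25170868 in rbMSC, so that 1 count was worth 0.0364 to 0.0468 CPM (a gene's share of the library's counts, after TMM scaling). The rcMSC replicate 3 library stood apart from its group. Its counts differed from those of rcMSC replicates 1 and 2 with a chi-square per degree of freedom of 42.8 and 42.0, against 2.69 to 3.16 for the other pairs within a group, and it lay nearer to rbMSC than those libraries did. Of 8 MSC markers (Thy1, Nt5e, Eng, Cd44, Itgb1, Pdgfra, Pdgfrb and Col1a1), all were detected in both groups and all differed between them, with 3 higher in rcMSC (Eng, Cd44 and Col1a1) and the other 5 lower, at a median log2 fold change of -0.54. Their summed level was 38188 to 46992 CPM in rcMSC and 25934 to 26245 CPM in rbMSC. Col1a1 alone averaged 37884 CPM in rcMSC and 21196 CPM in rbMSC, so the sum mostly follows that gene. Of 10 macrophage markers, 8 were lower in rcMSC and 2 did not pass, with summed levels of 308 to 399 CPM in rcMSC and 658 to 673 CPM in rbMSC. Over all genes tested, 22.6% were higher in rcMSC and 23.2% were lower, 45.8% together. In bulk libraries such as these, fewer cells of a type and less RNA per cell cannot be told apart.

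Of the 9 genes, 8 had enough counts to be tested and 1, Stra6, did not. In rcMSC, 3 were higher (Crabp1, Aldh1a3 and Crabp2), 2 were lower (Aldh1a2 and Cyp26b1) and 3 did not pass (Rbp4, Aldh1a1 and Rarb), in edgeR's quasi-likelihood test at an adjusted p under 0.05. Of the 14836 genes tested, 22.6% were higher and 23.2% lower, 45.8% together. All 5 called genes changed at least 2-fold, a size and call shared by 14.3% of the genes tested (5.76% higher and 8.53% lower). The 3 libraries of a group lay wholly above or below those of the other in the same 5 genes, and in 57.1% of all genes tested. The median log2 fold change was 0.24 over the 8 genes and 0.02 over all genes tested.

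**Figure D1:**
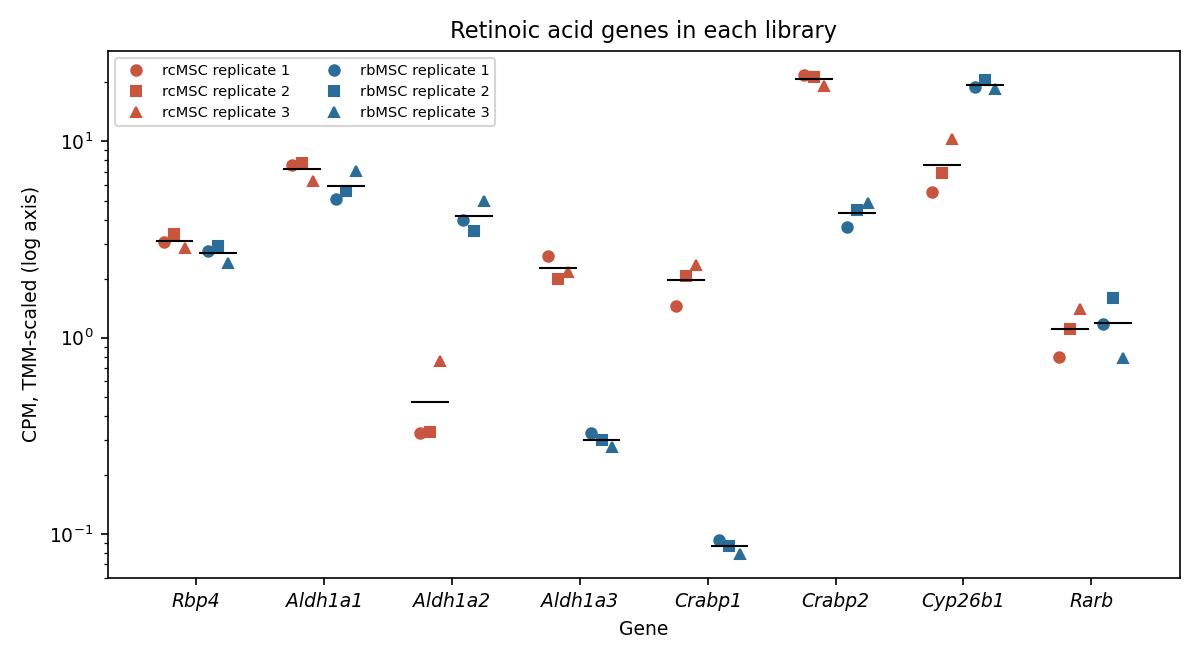
Level of 8 genes in each library in CPM on a log axis, with rcMSC in red and rbMSC in blue; the marker shape is the replicate and the black line the group mean (n = 3). Crabp1, Aldh1a3 and Crabp2 lie higher in every rcMSC library, and Aldh1a2 and Cyp26b1 lower, while Rbp4, Aldh1a1 and Rarb overlap. Stra6 is not drawn, since 5 of the 6 libraries had 0 counts.

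No change was detected in the genes of retinol delivery. Rbp4 (ENSRNOG00000015518, chromosome 1, 235893917 to 235901399 on the minus strand, build mRatBN7.2), the plasma carrier of retinol and a product of liver and fat cells, had 3.06, 3.39 and 2.88 CPM in rcMSC replicates 1 to 3 and 2.76, 2.94 and 2.42 CPM in rbMSC replicates 1 to 3. The groups overlapped. On the log2 scale the change, rcMSC over rbMSC, was 0.20 (SE 0.18, edgeR adjusted p = 0.383), with a 95% interval of -0.20 to 0.60. Of 7 adipocyte markers, 4 were tested and all 4 were lower in rcMSC, as were 23.2% of all genes tested. The summed level of the adipocyte markers was 61.7 to 71.1 CPM in rcMSC and 351 to 365 CPM in rbMSC. Lpl made up most of that sum, averaging 65.1 CPM in rcMSC and 338 CPM in rbMSC. The part of these markers in the level of Rbp4 was not tested.

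Stra6 (ENSRNOG00000008312, chromosome 8, 58549736 to 58568860), the membrane receptor that takes retinol from RBP4, had 0, 0 and 2 counts in rcMSC and 0, 0 and 0 in rbMSC. A count of 0 allows up to 3 counts, or 0.109 to 0.140 CPM per library, so that a difference was not detectable at this depth and no fold is given. These limits and the exact intervals below cover counting error only.

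The ALDH1A enzymes carry out the last step of synthesis, and their genes moved in different directions. Aldh1a2 fell and Aldh1a3 rose in rcMSC, while Aldh1a1 did not pass.

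Aldh1a2 (ENSRNOG00000055049, chromosome 8, 71877850 to 71957107), the main retinoic acid enzyme of trunk mesoderm in mouse embryos, had 0.328, 0.331 and 0.760 CPM in rcMSC replicates 1 to 3, and 3.98, 3.50 and 4.99 CPM in rbMSC replicates 1 to 3. These came from 9, 9 and 19 counts in rcMSC and 85, 81 and 126 in rbMSC. The groups did not overlap, and rcMSC replicate 3 was the highest of its group. Its log2 fold change was -3.14 (SE 0.32; edgeR adjusted p = 2.66e-05), that is 8.83-fold higher in rbMSC. Among the genes tested, 1.69% changed by as much or more. Without rcMSC replicate 3 the log2 fold change was -3.64 (edgeR adjusted p = 7.02e-15). It was -2.93 without rcMSC replicate 1 (edgeR adjusted p = 0.000205). The largest edgeR adjusted p without 1 library was 0.000516, without rbMSC replicate 3.

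Aldh1a3 (ENSRNOG00000052070, chromosome 1, 119982277 to 120017436, minus strand), which in mouse embryos acts in the eye and nasal region, had 2.62, 1.99 and 2.16 CPM in rcMSC and 0.327, 0.303 and 0.277 CPM in rbMSC. Each rbMSC library held 7 counts, and the rcMSC libraries held 72, 54 and 54. The groups did not overlap. Aldh1a3 thus had a log2 fold change of 2.88 (SE 0.29; adjusted p = 2.64e-05 in edgeR), or 7.38-fold with a 95% interval of 4.70 to 11.6.

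Aldh1a1 (ENSRNOG00000017619, chromosome 1, 218042127 to 218152961), a retinaldehyde dehydrogenase of liver, lung and stem cells, had 7.61, 7.81 and 6.28 CPM in rcMSC and 5.10, 5.62 and 7.05 CPM in rbMSC. The groups overlapped, since rbMSC replicate 3 lay above rcMSC replicate 3. A log2 fold change of 0.28 (SE 0.16; adjusted p = 0.166 in edgeR) had a 95% interval of -0.07 to 0.64. Without rcMSC replicate 3 Aldh1a1 passed the threshold at 0.37 on the log2 scale (edgeR adjusted p = 0.026).

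On a scale that allows levels of different genes to be compared, RPKM (CPM per kilobase of the gene's annotated length), the 3 enzymes summed to 2.60, 2.46 and 2.37 RPKM in rcMSC and 3.00, 2.90 and 3.87 RPKM in rbMSC. The sum averaged 2.48 ± 0.12 RPKM in rcMSC and 3.26 ± 0.53 RPKM in rbMSC, and was lower in every rcMSC library than in any rbMSC library. Aldh1a1 made up 64.8 ± 5.71% of the summed RPKM in rcMSC while in rbMSC it made up 40.4 ± 2.67% (SD over 3 libraries). The share of Aldh1a2 was 8.64 ± 4.92% in rcMSC and 56.8 ± 2.66% in rbMSC, and that of Aldh1a3 was 26.6 ± 2.92% in rcMSC and 2.78 ± 0.60% in rbMSC. Aldh1a1 thus had the largest share in all 3 rcMSC libraries, with Aldh1a3 next, and Aldh1a2 the largest in all 3 rbMSC libraries. In rcMSC replicate 3 the share of Aldh1a2 was 14.3%, against 5.61% and 5.99% in rcMSC replicates 1 and 2. These shares carry no test, and that of Aldh1a3 in rbMSC rests on 7 counts per library.

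**Figure D2:**
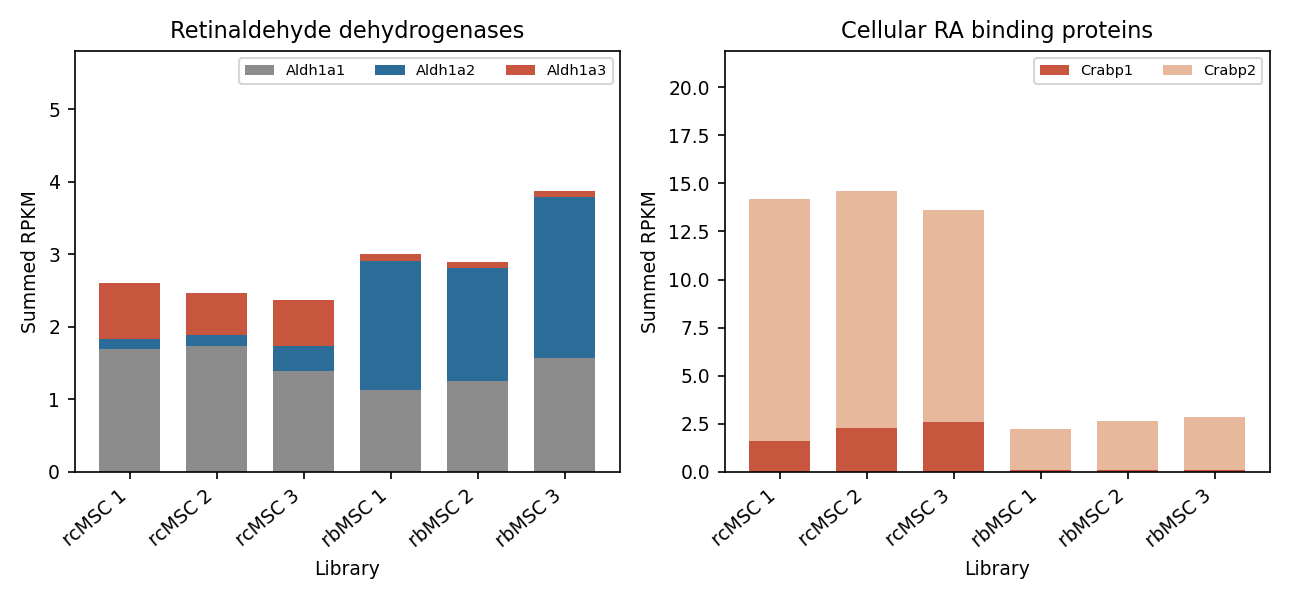
Summed level in RPKM of the 3 Aldh1a genes (left) and the 2 Crabp genes (right) in each library, stacked by gene. Aldh1a2 makes up 8.64% of the Aldh1a sum in rcMSC on average and 56.8% in rbMSC, and the Crabp sum is 13.6 to 14.6 RPKM in rcMSC and 2.20 to 2.87 RPKM in rbMSC.

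The promoters of the 3 enzymes are shown because their genes moved apart. Each sequence is the RefSeq window of 300 bases (250 before and 50 after the annotated start) in build GRCr8, 5′ to 3′ on the gene's strand, with Aldh1a1 at chr1:227537370-227537669 (plus strand), Aldh1a2 at chr8:80758391-80758690 (plus strand) and Aldh1a3 at chr1:129427594-129427893 (minus strand). Capitals mark CCAAT and the octamer ATGCAAAT, both searched on either strand and chosen after the sequences were read.
Aldh1a1: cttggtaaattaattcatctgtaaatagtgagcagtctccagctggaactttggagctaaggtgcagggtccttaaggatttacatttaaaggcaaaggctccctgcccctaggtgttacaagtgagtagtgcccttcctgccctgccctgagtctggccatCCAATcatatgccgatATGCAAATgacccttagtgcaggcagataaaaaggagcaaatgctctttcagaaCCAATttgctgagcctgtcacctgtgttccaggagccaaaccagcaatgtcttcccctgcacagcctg
Aldh1a2: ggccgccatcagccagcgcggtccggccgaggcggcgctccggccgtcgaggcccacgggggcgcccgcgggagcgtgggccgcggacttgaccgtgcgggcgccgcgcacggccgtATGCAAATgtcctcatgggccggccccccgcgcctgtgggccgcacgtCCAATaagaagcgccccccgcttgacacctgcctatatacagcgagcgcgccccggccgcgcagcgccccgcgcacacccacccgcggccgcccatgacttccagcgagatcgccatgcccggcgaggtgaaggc
Aldh1a3: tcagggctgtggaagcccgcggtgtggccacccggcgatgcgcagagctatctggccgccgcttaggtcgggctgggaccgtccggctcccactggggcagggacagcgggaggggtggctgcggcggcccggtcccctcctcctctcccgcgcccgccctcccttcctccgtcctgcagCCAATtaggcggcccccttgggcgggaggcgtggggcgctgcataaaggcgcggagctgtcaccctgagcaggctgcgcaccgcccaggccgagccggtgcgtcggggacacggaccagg
All 3 windows held CCAAT, as did 37.5% of the 33469 promoters in the RefSeq table. The octamer was present in the windows of Aldh1a1, starting at position -72, and Aldh1a2, at -133, counted from the annotated start, and in 1.78% of all promoters. It was not in the window of Aldh1a3 or in those of the other genes of the set. Since the octamer was chosen after these windows were read, the share of 1.78% is no test of it. Counts per gene do not show which starts were used, and the part of these motifs in the changes was not tested.

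The binding proteins rose together in rcMSC. Crabp1 (ENSRNOG00000023633, chromosome 8, 55151285 to 55159360), which marks cranial neural crest cells in mouse and chick embryos, had 1.46, 2.06 and 2.36 CPM in rcMSC and 0.0936, 0.0865 and 0.0792 CPM in rbMSC. In rbMSC these values stand for 2 counts in each rbMSC library, against 40, 56 and 59 counts in rcMSC. The groups did not overlap. Crabp1 changed by 4.43 on the log2 scale (SE 0.42, edgeR adjusted p = 1.51e-05), and 0.762% of the genes tested changed by as much. The ratio of the summed counts, 155 in rcMSC over 6 in rbMSC, was 22.6 after scaling, with an exact binomial 95% interval of 10.2 to 62.6. An unnamed gene on the other strand shares exon sequence with Crabp1 and had 0 counts, and none of the other 8 genes shared exon bases with another gene of the table.

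Crabp2 (ENSRNOG00000022101, chromosome 2, 173416857 to 173421379), which carries retinoic acid to the receptors in the nucleus, had 21.9, 21.4 and 19.2 CPM in rcMSC and 3.65, 4.46 and 4.83 CPM in rbMSC. Every rcMSC library was above every rbMSC library. Its log2 fold change was 2.26 (SE 0.13, edgeR adjusted p = 3.09e-07), or 4.81-fold with a 95% interval of 3.96 to 5.83. It had the smallest SE of the 8 genes tested, with 1661 counts in rcMSC and 303 in rbMSC.

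The 2 genes together gave 14.2, 14.6 and 13.6 RPKM in rcMSC and 2.20, 2.66 and 2.87 RPKM in rbMSC. Crabp2 was the larger part in both, at 84.6 ± 3.91% of the sum in rcMSC while in rbMSC it was 96.2 ± 0.84% (SD over 3 libraries). The share of Crabp1 was 15.4 ± 3.91% in rcMSC and 3.79 ± 0.84% in rbMSC. In rbMSC this share rests on 2 counts of Crabp1 per library, and its SD does not show the counting error.

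The degrading enzyme fell. Cyp26b1 (ENSRNOG00000015076, chromosome 4, 117041808 to 117058628, minus strand), the CYP26 enzyme of skeletal tissue in mouse embryos, had 5.50, 6.92 and 10.3 CPM in rcMSC and 18.9, 20.7 and 18.5 CPM in rbMSC. The groups did not overlap, and rcMSC replicate 3 was again nearest to rbMSC. Its log2 fold change was -1.36 (SE 0.19, edgeR adjusted p = 0.000438), that is 2.56-fold higher in rbMSC, and -1.64 without rcMSC replicate 3 (edgeR adjusted p = 2.71e-18). Cyp26b1 was at -1.17 without rcMSC replicate 1 (edgeR adjusted p = 0.000533). The largest edgeR adjusted p of Cyp26b1 without 1 library was 0.00347, without rbMSC replicate 2. Its relatives Cyp26a1 and Cyp26c1, which degrade retinoic acid in the embryo, had 1 and 0 counts over the rcMSC libraries and 0 and 1 over the rbMSC libraries.

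Pericyte, osteoblast and adipocyte markers were lower in rcMSC beside Aldh1a2 and Cyp26b1. Over all genes tested, 23.2% were lower in rcMSC. All 5 pericyte markers tested of 6 were lower, with a summed level of 91.8 to 179 CPM in rcMSC and 842 to 853 CPM in rbMSC. All 5 osteoblast markers tested of 6 were lower, with 42.0 to 53.1 CPM in rcMSC and 92.4 to 93.5 CPM in rbMSC. Alpl made up most of that sum, averaging 47.1 CPM in rcMSC and 61.7 CPM in rbMSC. Ibsp averaged 0.387 CPM in rcMSC and 24.0 CPM in rbMSC. Bglap, the osteocalcin gene, was at 0 in every library. Of 10 markers of meningeal fibroblasts, which make retinoic acid in the mouse brain coverings, 5 were tested, 1 was higher (Slc13a4), 1 was lower (Foxc1) and 3 did not pass. Their summed level was 49.0 to 65.1 CPM in rcMSC and 80.8 to 90.2 CPM in rbMSC, and Slc6a13, Slc22a6 and Ptgds were at 0 in every library. Foxc1 alone averaged 13.0 CPM in rcMSC and 47.5 CPM in rbMSC. Of 6 markers of Schwann cells and neural crest glia, 4 were tested, 0 were higher, 1 (S100b) was lower and 3 did not pass. Their summed level was 31.0 to 31.8 CPM in rcMSC and 45.6 to 49.0 CPM in rbMSC. S100b alone averaged 18.1 CPM in rcMSC and 37.3 CPM in rbMSC, and the median log2 fold change of the 4 was 0.34. Ngfr was at 2.69 (edgeR adjusted p = 0.0507), with 17, 21 and 115 counts in rcMSC and 8, 8 and 5 in rbMSC. Sox10 had 1 to 3 counts over all libraries. Of 7 endothelial markers 6 were tested, 1 was higher (Tek) and 1 lower (Tie1), with 15.9 to 17.8 CPM in rcMSC and 13.8 to 16.4 CPM in rbMSC. Of 6 epithelial markers 4 were in the table and 1 was tested, Cdh1, which was lower, and their sum was 1.46 to 2.20 CPM in rcMSC and 4.91 to 6.02 CPM in rbMSC. The part of these cell types in the changes above was not tested.

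The summed Aldh1a level over that of Cyp26b1, both in RPKM, was 2.16, 1.62 and 1.04 in rcMSC and 0.724, 0.638 and 0.955 in rbMSC. These ratios did not overlap between the groups, with rcMSC replicate 3 next to rbMSC replicate 3. The summed Crabp level over that of Cyp26b1 was 11.8, 9.60 and 6.02 in rcMSC and 0.532, 0.586 and 0.707 in rbMSC. Both ratios have Cyp26b1, already called lower in rcMSC, as denominator, and the Crabp genes were already called higher. The summed Aldh1a level was itself lower in every rcMSC library, so its higher ratio reflects the lower Cyp26b1. Both ratios thus add no separate result, describe messenger RNA only and carry no test.

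**Figure D3:**
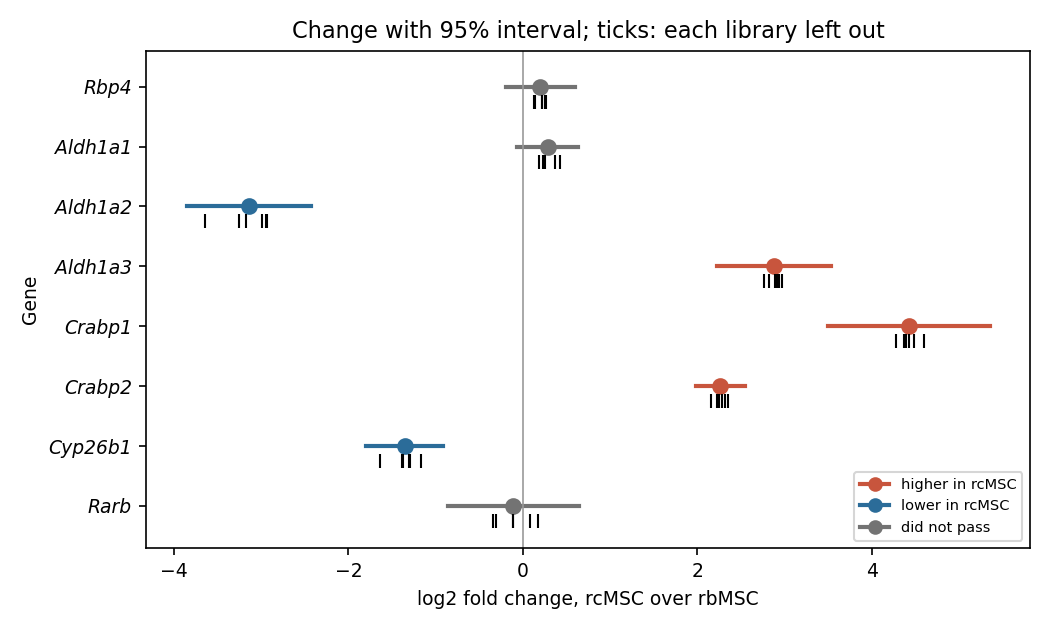
Log2 fold change, rcMSC over rbMSC, of the 8 genes tested, with the 95% interval of the edgeR fit as a bar and the values without 1 library each as black ticks. The ticks of the 5 called genes stay on the side of the full value, and those of Rarb lie on both sides of 0, from -0.34 to 0.17.

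The receptor gene of the set did not pass. Rarb (ENSRNOG00000024061, chromosome 15, 8406492 to 9051288), a retinoic acid receptor whose own promoter is a classical target of the signal, had 0.801, 1.10 and 1.40 CPM in rcMSC and 1.17, 1.60 and 0.792 CPM in rbMSC. The lowest and the next lowest values came from different groups, and the rcMSC range lay inside the rbMSC range. Its log2 fold change was -0.11 (SE 0.34, edgeR adjusted p = 0.819), with a 95% interval of -0.86 to 0.65, that is folds of 0.551 to 1.57, from 87 counts in rcMSC and 82 in rbMSC. Its sign turned to 0.08 without rcMSC replicate 1 and to 0.17 without rbMSC replicate 2 (edgeR adjusted p = 0.881 and 0.750).

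The Rarb promoter window (chr15:11336142-11336441, plus strand, RefSeq, build GRCr8) is shown because it holds a retinoic acid response element, the sequence that RAR and RXR bind as a pair. Capitals mark the element, a direct repeat of a hexamer spaced by 5 bases.
Rarb: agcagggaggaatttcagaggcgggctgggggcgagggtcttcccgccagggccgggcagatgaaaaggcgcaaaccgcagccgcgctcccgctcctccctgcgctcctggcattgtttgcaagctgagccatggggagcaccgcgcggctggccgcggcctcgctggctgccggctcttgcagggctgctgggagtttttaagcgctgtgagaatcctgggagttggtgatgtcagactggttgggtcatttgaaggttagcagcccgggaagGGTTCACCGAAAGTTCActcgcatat
The element, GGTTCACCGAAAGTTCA, lay at positions 25 to 41 after the annotated start. The search took AGGTCA as the hexamer, or its variant AGTTCA, and also the forms GGGTCA as well as GGTTCA, in any pair on the same strand. A pair spaced by 5 bases was found on either strand in 0.382% of the 33469 promoters, a pair spaced by 2 in 0.17% and a pair spaced by 1 in 0.233%. Among the 9 genes, such a repeat was in this window and in none of the other 8. Rarb has several starts, and counts per gene do not show which of them was used.

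Per length, Crabp2 was the highest of the 9 genes in rcMSC, at 12.0 ± 0.84 RPKM, followed by Rbp4 at 3.01 ± 0.25 RPKM (SD, n = 3). Crabp1 (2.17 ± 0.51 RPKM), Cyp26b1 (1.67 ± 0.54 RPKM) and Aldh1a1 (1.61 ± 0.18 RPKM) came next in rcMSC, each with a range that overlapped that of its neighbour. Aldh1a3 stood at 0.660 ± 0.10 RPKM, above Rarb at 0.276 ± 0.07 RPKM and Aldh1a2 at 0.211 ± 0.11 RPKM, whose ranges overlapped. In rbMSC the order differed, with Cyp26b1 first at 4.25 ± 0.26 RPKM. Rbp4 (2.62 ± 0.26 RPKM), Crabp2 (2.48 ± 0.35 RPKM), Aldh1a2 (1.85 ± 0.34 RPKM) and Aldh1a1 (1.32 ± 0.22 RPKM) followed in rbMSC, each overlapping the next. Rarb was at 0.297 ± 0.10 RPKM, above Crabp1 and Aldh1a3 at 0.0957 ± 0.01 and 0.0885 ± 0.01 RPKM. Each rbMSC library held 2 counts of Crabp1 and 7 of Aldh1a3, so these SDs reflect library size and not counting error. Stra6 was last in both groups.

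Other genes of the pathway were taken from 4 lists. Of 59 distinct genes, 54 were in the table under the symbol searched and 36 were tested, of which 12 were higher, 12 were lower and 12 did not pass in rcMSC. That is 66.7% called, beside 45.8% of all genes tested, and 27.8% were called at 2-fold or more, beside 14.3%. The median log2 fold change of the 36 was -0.02. Some genes stand in 2 lists. Beside the counts by direction in each list below, 22.6% of all genes tested were higher and 23.2% were lower.

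Of 12 tested genes for retinol supply, storage and oxidation, 7 were higher, 2 were lower and 3 did not pass. Adh7, an alcohol dehydrogenase that oxidises retinol, had 11.1, 11.4 and 42.1 CPM in rcMSC and 0.187, 0.303 and 0.554 CPM in rbMSC. The groups did not overlap, and rcMSC replicate 3 held more than the other rcMSC libraries together. Its log2 fold change was 5.89 (SE 0.98, edgeR adjusted p = 0.00548), and 4.96 without rcMSC replicate 3. Aldh8a1, an aldehyde dehydrogenase that acts on cis-retinaldehyde, rose by 1.42 on the log2 scale (edgeR adjusted p = 0.00022). Dhrs9 and Rdh14, short-chain dehydrogenases that act on retinoids, rose by 0.83 and 0.71 (edgeR adjusted p = 0.00563 and 0.00383), and Rdh11, Rdh13 and Dhrs4 by less. Rdh13 lost its call without rbMSC replicate 1, and Dhrs4 without rcMSC replicate 2, rbMSC replicate 2 or rbMSC replicate 3. Dhrs3, which turns retinaldehyde back into retinol and is induced by retinoic acid, had 11.6, 12.4 and 16.9 CPM in rcMSC and 27.8, 30.4 and 26.5 CPM in rbMSC, which is -1.05 on the log2 scale (SE 0.13, edgeR adjusted p = 0.000147). Bco2, which cleaves carotenoids, was lower at -1.06 on the log2 scale (edgeR adjusted p = 0.026), and lost its call without rcMSC replicate 1, rbMSC replicate 2 or rbMSC replicate 3 (edgeR adjusted p = 0.0892, 0.0799 and 0.12). Rdh10, the retinol dehydrogenase needed in mouse embryos, was at -0.40 (edgeR adjusted p = 0.253), and passed at -0.62 without rcMSC replicate 3 (edgeR adjusted p = 0.0387). Lrat, which stores retinol as esters, had 4 counts over the rcMSC libraries and 1 over the rbMSC libraries, and Ttr, the plasma partner of RBP4, had 0 throughout.

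Besides Cyp26b1, the degradation list had 1 tested gene, Cyp2s1, with 2.15, 2.32 and 3.72 CPM in rcMSC and 3.42, 4.28 and 4.71 CPM in rbMSC. Its groups overlapped by rcMSC replicate 3, and the change of -0.61 on the log2 scale did not pass (SE 0.24, edgeR adjusted p = 0.0582). It was -0.89 without rcMSC replicate 3 (edgeR adjusted p = 0.000235).

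Of 14 tested receptors and co-regulators, 4 were higher, 5 were lower and 5 did not pass, with a median log2 fold change of -0.06. Of the called genes, Zfp423 alone changed 2-fold or more. Rarg, a receptor of skin and cartilage, rose by 0.36 on the log2 scale (SE 0.08, edgeR adjusted p = 0.00395), and Rara was at 0.20 (edgeR adjusted p = 0.0885), or 0.26 without rcMSC replicate 3 (edgeR adjusted p = 0.00308). Per length, Rarg made up 63.2%, 63.9% and 68.5% of the summed RPKM of the 3 RAR genes in rcMSC and 62.4%, 62.3% and 62.9% in rbMSC. Rarb made up 0.812% to 1.30% of that sum in rcMSC and 0.914% to 1.93% in rbMSC, so that it was the least abundant RAR gene in all 6 libraries. Rxra, the main partner receptor in many tissues, was lower at -0.47 on the log2 scale (edgeR adjusted p = 0.000417), and Zfp423, a zinc finger protein that binds RAR and RXR, at -1.23 (edgeR adjusted p = 0.00101). The coactivator Ncoa3 was lower at -0.37 (edgeR adjusted p = 0.00115). Ppard, a fatty acid receptor that has been linked to retinoic acid, rose by 0.71 (edgeR adjusted p = 0.0027). Also called were the mediator subunit Med1, higher at 0.29, the coactivator Ncoa1, higher at 0.28, and the corepressor Ncor1, lower at -0.23 (edgeR adjusted p = 0.00258, 0.0181 and 0.00594). Ncoa1 lost its call without rcMSC replicate 1, rcMSC replicate 2, rbMSC replicate 2 or rbMSC replicate 3 (edgeR adjusted p = 0.0533, 0.0728, 0.0655 and 0.0901).

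Of 14 tested genes that retinoic acid induces in other cells, 2 were higher, 6 were lower and 6 did not pass, with a median log2 fold change of -0.05. Rarres1, a retinoic acid responder of skin cells, had 25.2, 23.7 and 33.8 CPM in rcMSC and 90.2, 89.1 and 80.8 CPM in rbMSC, or -1.65 on the log2 scale (SE 0.12, edgeR adjusted p = 6.39e-06). The transcription factor Ets1 was lower at -1.08 (edgeR adjusted p = 0.000417) and Lamb1, a laminin chain, at -0.61 (edgeR adjusted p = 9.09e-06). Meis2, a homeobox factor, rose by 1.08 (edgeR adjusted p = 5.22e-06). Hoxd4, named after its values were seen, had 5 counts over the rcMSC libraries and 54 over the rbMSC libraries, and was lower at -3.53 (edgeR adjusted p = 0.000293), or -4.17 without rcMSC replicate 2. Stra8, Hoxb1 and Ucp1 had 0 counts in every library.

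**Figure D4:**
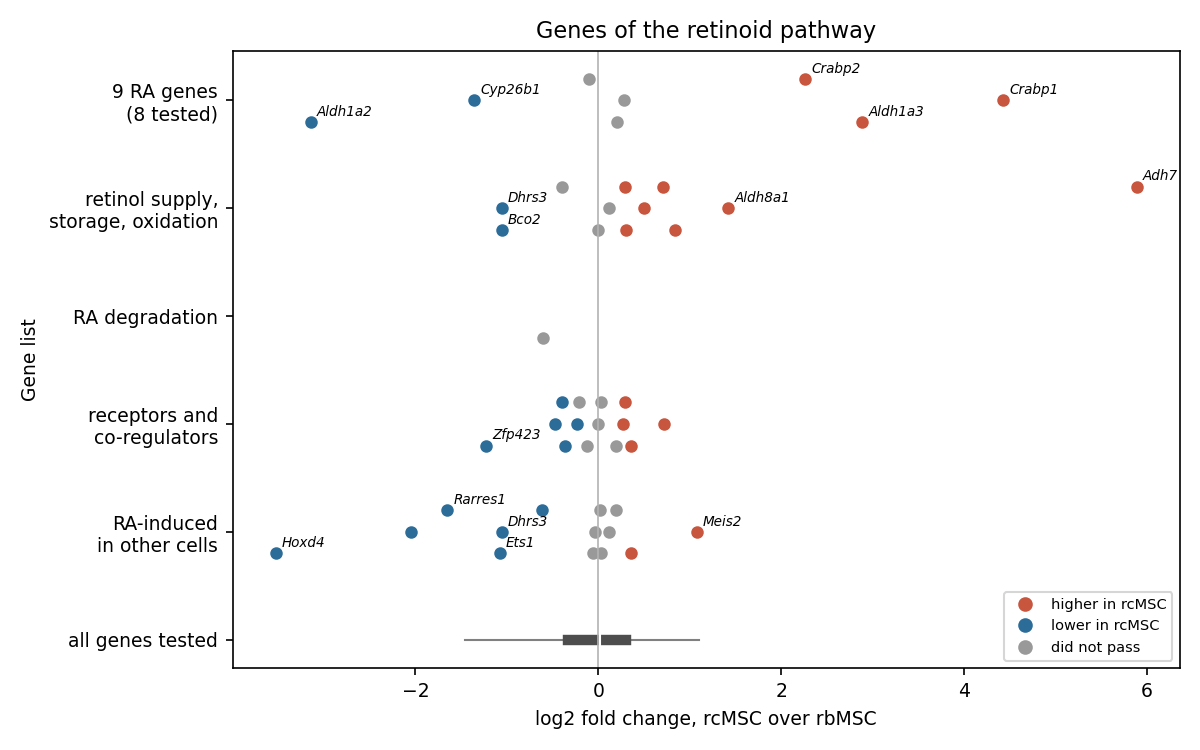
Log2 fold change, rcMSC over rbMSC, of the 9 retinoic acid genes (8 tested) and of the tested genes of 4 pathway lists, with 1 dot per gene, red where higher, blue where lower and grey where the gene did not pass; most called genes past 2-fold are named. The bottom row gives all 14836 genes tested, with the middle 50% as a thick bar from -0.33 to 0.30, 90% as a thin line from -1.46 to 1.10 and the median as a white tick.

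The genes most like Crabp2, by the Euclidean distance of log2 CPM centred on each gene's mean over the 6 libraries, were Bcl11b (distance 0.22), Galnt16 (0.29) and Lbp (0.30). Their log2 fold changes were 2.34, 2.22 and 2.25, beside 2.26 for Crabp2. Those most like Aldh1a2 were Slc2a5 (distance 0.08), Dysf (0.42) and Fosb (0.48), with log2 fold changes of -3.06, -2.78 and -3.18, beside -3.14 for Aldh1a2. With 3 libraries in each of 2 groups, the distances mostly reflect the size of the change.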

How the data were processed

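Paired reads of 150 nt were trimmed by the authors (Trim Galore 0.6.7, Trimmomatic 0.39), aligned to mRatBN7.2 (STAR 2.7.9a) and assigned to genes (featureCounts 2.0.1), per the labels' protocols. The submitters' processing notes also list DESeq2 1.20.0. No source used here states the strand setting or the annotation release. Deposited values were whole-number read counts, not normalized, for each gene and library; the gene length in bases came from the same deposited table.

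Library titles gave the groups. edgeR 4.0.16 in R 4.3.3 was run with TMM factors, the filterByExpr filter, robust estimation and the quasi-likelihood F test, and p-values were adjusted by Benjamini-Hochberg over all 14836 genes that passed the filter, with 0.05 as the threshold. An SE is the size of the log2 value over the root of its F statistic. CPM and RPKM use TMM-scaled library sizes. Totals of 21340290 to 26928079 counts set the precision. Alternatives were other scalings and filters, DESeq2 1.42.0, limma 3.58.1 voom, no robust estimation, a replicate block and each library left out.

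The 9 genes and all lists were chosen with earlier results of these data known. The rule named the 9 genes, up to 6 called genes per pathway list averaging 0 or more in log2 CPM, and the 3 nearest genes to the called member that rose most and to the one that fell most, both averaging 1 or more in log2 CPM. Promoters of all 9 genes were found by symbol in the RefSeq table of build GRCr8. Protein sequences were not used here, and values of some listed genes are not reported here.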

Additional observations from a re-analysis of the deposited data

How the results depend on the processing

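The same 5 of the 9 genes were called, in the same directions, under all 9 other settings and without each of the 6 libraries. With limma voom, and without rcMSC replicate 3, Aldh1a1 was called as well, at log2 fold changes of 0.36 and 0.37, so that 4 genes were higher there. Rarb, never called, ranged from -0.34 to 0.17 without 1 library, with the sign reversed at 0.08 without rcMSC replicate 1 and at 0.17 without rbMSC replicate 2. Without 1 library, the genes called lower numbered 1 to 3 in the retinol list (2 with all libraries) and 0 to 1 in the degradation list (0 with all). The degradation list had 1 gene called lower, Cyp2s1, with total count scaling, without the low-count filter, with limma voom and with the replicate block. With the full fit it had 0, at an edgeR adjusted p = 0.0582. Named genes whose fold moved by over 1.5 times without a library were Adh7 and Hoxd4. Over all genes, 5336 to 9070 were called without 1 library, against 6796 with all, and 9070 was the count without rcMSC replicate 3.

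Same-numbered libraries of the groups did not deviate together (correlations of -0.03, 0.02 and -0.05, beside -0.06 to 0.06 for the other pairs). The labels give the numbers no shared origin, so the main fit used no pairing. With 3 libraries in each group, such correlations cannot show whether same-numbered libraries were prepared together. With the replicate block 6297 genes were called, among them the same 5, with log2 fold changes of -3.17 for Aldh1a2 and -1.38 for Cyp26b1. Dhrs4 lost its call under the block (adjusted p = 0.0504).

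Stra6, with 2 counts, and the genes of a few counts per library are limited by depth.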
